A study of Rattus norvegicus with 6 samples.

Results

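Bax, Bcl2l1, Phlda3, Dapk1, Casp4, Tnfrsf12a and Aifm1 are 7 genes of cell death and of the p53 response, taken by gene symbol from the 1756 genes in the deposited table of ARVs-treated neonatal rat ventricular cardiomyocytes (NRVCs). They comprise a pair from the BCL2 family (Bax and Bcl2l1), the p53 targets Bax and Phlda3, a death-associated kinase (Dapk1), an inflammatory caspase (Casp4), a receptor of the tumour necrosis factor family (Tnfrsf12a) and a mitochondrial flavoprotein (Aifm1). NRVCs were isolated from left ventricles of Harlan Sprague–Dawley rat pups aged 2 to 3 days, enriched by pre-plating, and sequenced in bulk, so fewer cells of a type and less RNA per cell cannot be told apart. The ARVs group was treated for 24 h with Ritonavir, Abacavir, Atazanavir and Lamivudine at 5 µM, the control group received DMSO, and 3 libraries were sequenced for each group. The sources do not say whether each library came from its own cell preparation, and p-values therefore measure the spread between these libraries.

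In the mitochondrial pathway of apoptosis, proteins of the BCL2 family decide whether the outer membrane of mitochondria is opened. Bax forms the pores, and Bcl-xL, the long product of Bcl2l1, holds Bax and its activators in check. The transcription factor p53 switches on Bax and Phlda3 after DNA damage and other stress. In heart muscle of adults, whose muscle cells hardly divide, loss of cells by these routes is known to contribute to heart failure.

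Per the study's methods the table was restricted to genes that the authors had called as changed, and every row lay under their adjusted p threshold of 0.05. A test on the same libraries therefore gives the size and spread of a change, and is not independent evidence that a gene changed. Raw counts were scaled by the authors' size factors and tested in edgeR with its quasi-likelihood method, and 100% of the 1751 genes that passed a filter on low counts were called, 39.9% as higher and 60.1% as lower with ARVs. All 7 genes passed this filter. Summed over the table, a DMSO library held 4871069 to 5871352 counts and an ARVs library 4329218 to 5271521. The 7 genes were counted between 253 and 4919 times per library. At the mean count of a gene in a group, the counting error was 1.48% to 5.69% of the level. The second DMSO library differed from the rest of its group: per degree of freedom, the chi-square of its counts was 29.4 against replicate 1 and 32.0 against replicate 3, whereas all other pairs within a group had 4.85 to 6.45.

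Promoter sequences were searched for the p53 consensus half-site, as planned. GGGCGG and CCAAT, which were not in the plan, were searched as well. RefSeq windows of 300 bases (250 before and 50 after a start site, build GRCr8) matched 5 of the 7 genes by symbol, with 4 start sites for Bcl2l1. Bax and Casp4 had no entry. Phlda3, Dapk1 and Tnfrsf12a, which were higher with ARVs, and Aifm1, which was lower, are shown 5′ to 3′ on the strand of the gene. Capitals mark GGGCGG, the GC box bound by SP-family factors, or its reverse complement, and in Aifm1 the letters CCAAT.
Phlda3 (chr13:49744753-49745052, + strand): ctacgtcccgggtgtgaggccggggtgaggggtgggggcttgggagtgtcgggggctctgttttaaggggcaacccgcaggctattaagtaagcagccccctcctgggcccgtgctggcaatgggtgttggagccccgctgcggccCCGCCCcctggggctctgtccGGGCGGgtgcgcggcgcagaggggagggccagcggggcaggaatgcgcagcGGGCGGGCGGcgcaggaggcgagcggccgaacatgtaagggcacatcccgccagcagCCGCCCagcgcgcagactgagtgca
Dapk1 (chr17:4096532-4096831, - strand): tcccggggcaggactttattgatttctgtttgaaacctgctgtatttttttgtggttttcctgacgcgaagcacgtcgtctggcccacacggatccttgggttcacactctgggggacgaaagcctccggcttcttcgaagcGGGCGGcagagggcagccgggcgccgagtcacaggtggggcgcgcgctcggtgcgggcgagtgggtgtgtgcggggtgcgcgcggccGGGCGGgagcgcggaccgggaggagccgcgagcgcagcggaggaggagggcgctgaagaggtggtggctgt
Tnfrsf12a (chr10:13213599-13213898, - strand): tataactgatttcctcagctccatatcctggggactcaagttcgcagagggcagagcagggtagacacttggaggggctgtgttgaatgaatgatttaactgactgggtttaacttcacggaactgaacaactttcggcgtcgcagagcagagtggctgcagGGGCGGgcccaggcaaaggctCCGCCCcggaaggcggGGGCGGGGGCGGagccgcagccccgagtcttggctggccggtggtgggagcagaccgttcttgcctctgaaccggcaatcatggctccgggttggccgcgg
Aifm1 (chrX:132567188-132567487, - strand): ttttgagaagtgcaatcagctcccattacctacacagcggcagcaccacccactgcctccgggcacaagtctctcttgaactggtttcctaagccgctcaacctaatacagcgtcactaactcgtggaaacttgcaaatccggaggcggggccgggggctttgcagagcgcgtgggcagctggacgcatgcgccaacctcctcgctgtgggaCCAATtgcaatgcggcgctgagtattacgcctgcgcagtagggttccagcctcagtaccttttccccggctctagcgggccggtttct
GGGCGG, searched on both strands, occurred 5 times in the Phlda3 window, including a pair that overlaps by its last and first letters, 4 times in the Tnfrsf12a window and 2 times in the Dapk1 window. It occurred 1 time in 1 of the 4 Bcl2l1 windows and not in the Aifm1 window, and 33.1% of all 33469 windows held it. CCAAT was found in the Aifm1 window and in 2 Bcl2l1 windows, against 37.5% of all windows. TATAAA was found in no window of these genes, against 14.2% of all windows. The p53 consensus half-site was found in none of these 8 windows and in 8.0% of all windows, which says only that these letters are not within this distance of the start. The windows of Phlda3, Dapk1, Tnfrsf12a and Aifm1 had a GC content of 72.3%, 66.7%, 61.3% and 58.7%, compared with a median of 51.7% over all windows. The 4 Bcl2l1 windows lay on both sides of this median, with 42%, 49.7%, 61.3% and 59%.

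ARVs treatment raised Bax and Bcl2l1 by nearly the same proportion. Both genes of the BCL2 family were higher in every ARVs library than in every DMSO library, by 26.6% and 26.3%. The 5 higher genes without overlap (Bax, Bcl2l1, Phlda3, Dapk1 and Casp4) and Aifm1, which was lower without overlap, compare with 95.9% of all 1756 listed genes whose groups were apart (39.2% higher and 56.7% lower), so separation of the groups is no property of these genes.

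Bax is located on chromosome 1 (101451802 to 101457207, - strand, coordinates of the release 97 reference used by the authors), and its product permeabilizes the outer mitochondrial membrane. It had 1053, 1071 and 1158 normalized counts in the DMSO libraries (replicates 1 to 3 in order, here and below) and 1397, 1385 and 1372 in the ARVs libraries. The ARVs libraries were almost level with each other, with a spread of 0.886% of the mean that was below the counting error of 2.70%. The highest DMSO library lay well below the lowest ARVs library. The mean rose from 1094 ± 55.8 to 1385 ± 12.3 normalized counts (SD, n = 3 each), or 0.34 ± 0.06 (SE) on the log2 scale (edgeR adjusted p = 0.00121).

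Bcl2l1 (chromosome 3, 148259596 to 148313810, - strand) gives the survival protein Bcl-xL and, by alternative splicing, a shorter product that favours death, which the gene count does not separate. Its normalized counts were 1816, 1854 and 1658 with DMSO and 2272, 2175 and 2284 with ARVs. DMSO replicate 3 was the lowest library, and the groups did not overlap. Its log2 fold change was 0.34 ± 0.06 (SE, edgeR adjusted p = 0.00117), with means of 1776 ± 104 and 2244 ± 60.1 normalized counts (SD, n = 3 each).

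The ratio of Bax to Bcl2l1 within a library needs no scaling between libraries. There were 0.580, 0.578 and 0.698 Bax counts per Bcl2l1 count with DMSO and 0.615, 0.637 and 0.601 with ARVs. The ARVs values all lay inside the range of the DMSO values, whose upper end was set by DMSO replicate 3 alone, and above DMSO replicates 1 and 2. On the log2 scale the ratio was -0.70 ± 0.16 with DMSO and -0.70 ± 0.04 with ARVs (SD, n = 3 each), a difference of 0.0026 that was far smaller than the spread between replicates. With each library left out in turn the difference ranged from -0.044 to 0.093, the latter without DMSO replicate 3, when all ARVs libraries (log2 ratios of -0.70, -0.65 and -0.74) were above both remaining DMSO libraries (-0.79 each). The sign of the difference thus depended on which library was left out.

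**Figure D1:**
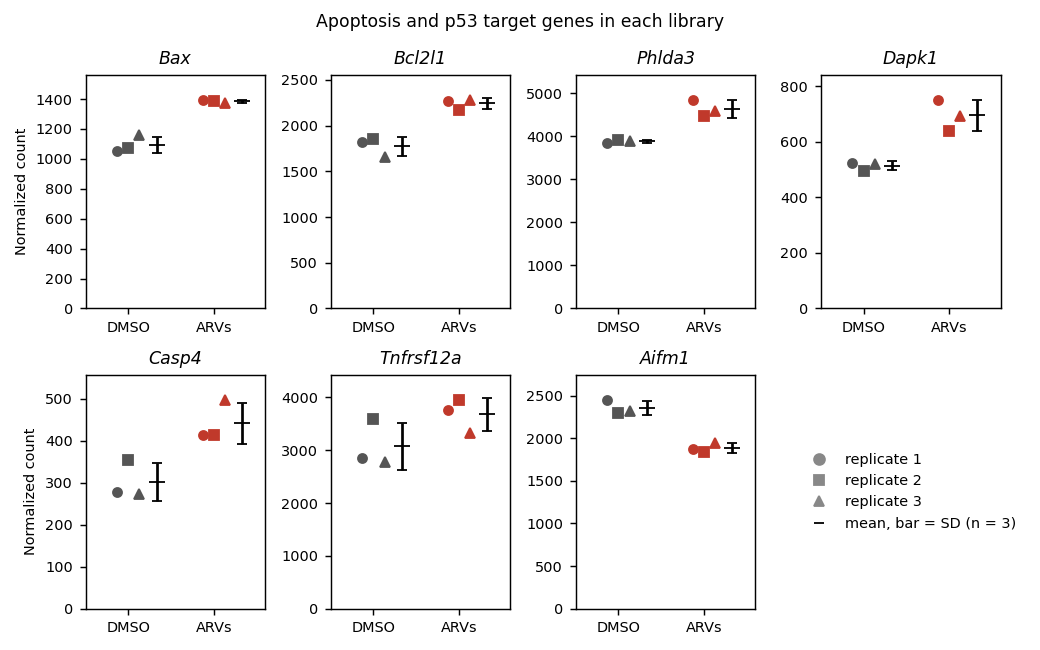
Normalized counts (y axis, from 0) of the 7 genes in DMSO and ARVs libraries; symbols mark replicate numbers, and the black bar gives the mean and SD of 3 libraries. In 6 panels the groups are apart, and in the Tnfrsf12a panel DMSO replicate 2 (3592) lies above ARVs replicate 3 (3327).

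The p53 target Phlda3 and the kinase gene Dapk1 rose as well. Phlda3 (chromosome 13, 52588917 to 52592001, + strand) encodes a small protein with a pleckstrin homology domain that competes with the survival kinase Akt for membrane lipids. It had 3838, 3905 and 3887 normalized counts with DMSO and 4847, 4459 and 4577 with ARVs. The DMSO libraries were nearly identical, with a spread of 0.898% of the mean that was below the counting error of 1.59%, whereas the ARVs libraries spread by 4.30%. The rise of 19.4% corresponded to 0.26 ± 0.05 (SE) on the log2 scale (edgeR adjusted p = 0.00176), from 3876 ± 34.8 to 4628 ± 199 normalized counts (SD, n = 3 each).

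Dapk1 (chromosome 17, 4297224 to 4454778, - strand) encodes a calmodulin-regulated serine/threonine kinase that is linked to apoptosis and autophagy. Normalized counts were 525, 496 and 522 with DMSO and 752, 639.9 and 694 with ARVs. All ARVs libraries were above all DMSO libraries, ARVs replicate 1 being the highest. The log2 fold change was 0.43 ± 0.08 (SE, edgeR adjusted p = 0.00155), with means of 514 ± 16.1 and 695 ± 56.3 normalized counts (SD, n = 3 each).

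Casp4 had the largest change of the 7 genes, and Tnfrsf12a the largest adjusted p with the authors' size factors and all libraries. Casp4 (chromosome 8, 2635851 to 2651652, + strand), also named Casp11 in RefSeq, encodes an inflammatory caspase that in mice senses bacterial lipopolysaccharide in the cytosol and cleaves gasdermin D. It was counted 279, 353 and 273 times after scaling in the DMSO libraries and 413, 413 and 497 times in the ARVs libraries. DMSO replicate 2 was nearer to the ARVs libraries than the other DMSO libraries were, but did not reach them. The rise of 46.0% corresponded to 0.55 ± 0.13 (SE) on the log2 scale (edgeR adjusted p = 0.00419), from 302 ± 44.7 to 441 ± 48.5 normalized counts (SD, n = 3 each). Genes of macrophages, a cell type that is known to express this caspase in mice, moved in both directions. Log2 fold changes of the listed ones ranged from -1.68 to 1.22, and the only one that fell did not reach 10 counts in every library. Over all tested genes 39.9% rose and 60.1% fell. Of 11 macrophage markers 4 were in the table (3 higher, 1 lower), and none was at 0 in any library. Their summed normalized count was 952 to 1044 in DMSO and 1262 to 1360 in ARVs libraries. Only markers that the authors called as changed enter this sum, so its difference between groups does not measure the amount of macrophage RNA. The part of these markers' cells in the change of Casp4 was not tested.

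Tnfrsf12a (chromosome 10, 12995904 to 12997930, - strand) encodes Fn14, the receptor of the cytokine TWEAK, which has no death domain of its own. It had 2863, 3592 and 2774 normalized counts with DMSO and 3754, 3954 and 3327 with ARVs. DMSO replicate 2 was above ARVs replicate 3, and Tnfrsf12a was thus the only gene of the 7 whose groups overlapped at this scaling. The log2 fold change was 0.26 ± 0.10 (SE, edgeR adjusted p = 0.0373), from 3077 ± 449 to 3678 ± 320.4 normalized counts (SD, n = 3 each). The call was lost when 1 of 4 libraries was left out, DMSO replicate 1, DMSO replicate 3, ARVs replicate 1 or ARVs replicate 2 (edgeR adjusted p = 0.102 to 0.132). It was also lost when p-values were adjusted for all 13187 genes tested by the authors, an alternative added after seeing the data (edgeR adjusted p = 0.281). The call was kept without DMSO replicate 2, without ARVs replicate 3, and with the replicate number as a block (edgeR adjusted p = 0.00337 with the block).

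The place of DMSO replicate 2 differed between the genes. Its position was expressed as a percentage of the log2 distance from the mean of DMSO replicates 1 and 3 (0%) to the mean of the ARVs libraries (100%). Tnfrsf12a lay at 92.0% and Casp4 at 53.03% of this distance. Bcl2l1 lay at 25.9%, Aifm1 at 15.5% and Phlda3 at 6.14%, while Bax (-13.6%) and Dapk1 (-19.2%) lay on the far side of the other controls. The median over the 1751 tested genes was 17.3%. Without this library the log2 fold change of Tnfrsf12a was 0.38 (edgeR adjusted p = 5.5e-05) and that of Casp4 was 0.67 (edgeR adjusted p = 5.3e-05). The other 5 genes had values of 0.33 for Bax, 0.37 for Bcl2l1, 0.26 for Phlda3, 0.41 for Dapk1 and -0.34 for Aifm1.

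**Figure D2:**
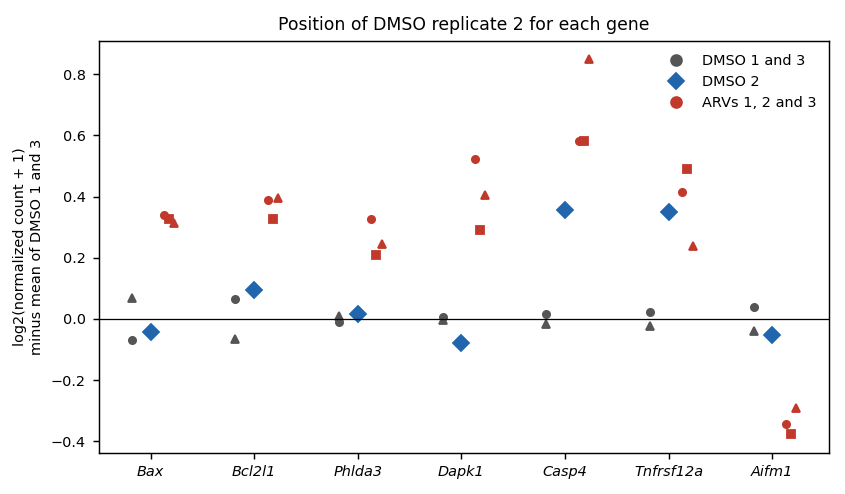
Difference of log2(normalized count + 1) from the mean of DMSO replicates 1 and 3 (y axis) for each gene (x axis) and library; the diamond is DMSO replicate 2. The diamond sits among the ARVs libraries for Tnfrsf12a (92.0% of the distance), about midway for Casp4 (53.03%), and near the other controls for Bax, Phlda3, Dapk1 and Aifm1.

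Aifm1 was the gene that fell with ARVs. Aifm1 (chromosome X, 135304066 to 135343087, - strand) encodes the apoptosis-inducing factor, a flavoprotein of the mitochondrial intermembrane space that is needed for assembly of the respiratory chain and, when released, takes part in chromatin fragmentation. Its normalized counts were 2449.5, 2298 and 2317 with DMSO and 1877, 1836 and 1948 with ARVs, and the groups were clearly apart. The log2 fold change was -0.32 ± 0.05 (SE, edgeR adjusted p = 8.3e-04), from 2355 ± 82.5 to 1887 ± 56.9 normalized counts (SD, n = 3 each). With median-ratio factors computed over the listed genes, which put the median gene near no change, its log2 fold change was -0.12 and did not pass (edgeR adjusted p = 0.0672), with 30.6% of all tested genes called lower under this scaling.

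**Figure D3:**
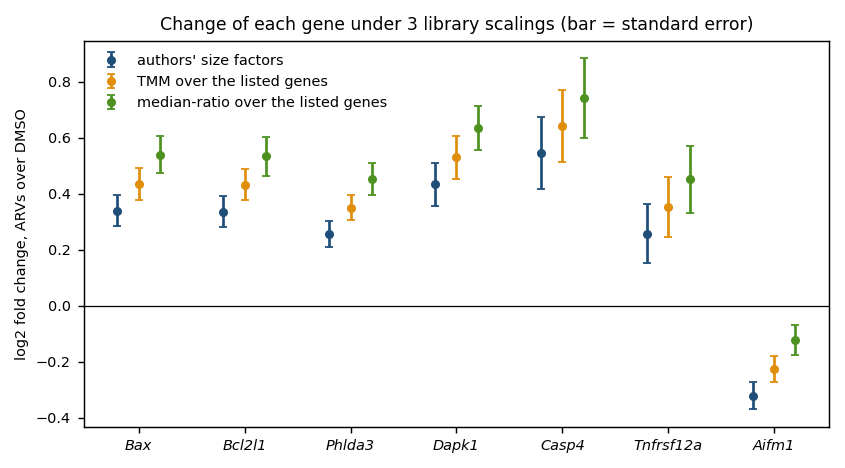
Log2 fold change of ARVs over DMSO (y axis, bars are standard errors) of the 7 genes with the authors' size factors, with TMM, or with median-ratio factors, both computed on the table. The latter scalings lie higher by a median of 0.10 and 0.20 over all tested genes; the 6 rises stay above 0 and Aifm1 stays below 0 under all 3, with -0.12 as its smallest fall.

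Among the changed genes of the table these changes were moderate. The median log2 fold change was 0.32 over the 699 genes called higher and -0.47 over the 1052 called lower. Casp4 had the rank 130 and Dapk1 the rank 196 by size among the rises, Bax and Bcl2l1 the ranks 318 and 328, and Tnfrsf12a and Phlda3 the ranks 499 and 506. Aifm1 had the rank 734 among the falls. Thus Casp4, Dapk1, Bax and Bcl2l1 changed more than the median rise, and Tnfrsf12a, Phlda3 and Aifm1 less than the median change in their direction.

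FPKM, the authors' level per transcript length and library size, orders the genes by abundance. With DMSO, Tnfrsf12a (146 to 192 FPKM) and Phlda3 (135 to 141 FPKM) were the most abundant. Aifm1 (57.3 to 59.7 FPKM), Bax (52.0 to 57.9 FPKM) and Bcl2l1 (38.7 to 43.9 FPKM) formed the middle, followed by Casp4 (11.3 to 14.9 FPKM) and Dapk1 (4.56 to 4.73 FPKM). Only Aifm1 and Bax overlapped among neighbours in this order. With ARVs the place of Aifm1 changed from the first to the last of these middle genes: Bax had 69.4 to 71.6, Bcl2l1 52.4 to 53.9 and Aifm1 46.9 to 48.6 FPKM, without overlap. There were 0.871, 0.943 and 1.01 FPKM of Bax per FPKM of Aifm1 with DMSO, and 1.51, 1.53 and 1.43 with ARVs. Bcl2l1, below Aifm1 in every DMSO library (ratio 0.676 to 0.762), was above it in every ARVs library (ratio 1.11 to 1.14). A ratio within a library shows that the genes changed unequally and holds under any scaling of the libraries.

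**Figure D4:**
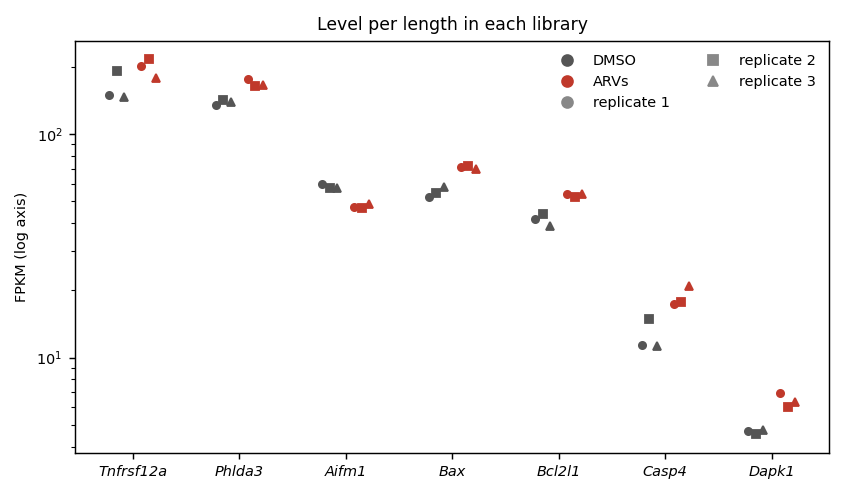
FPKM (log axis) of the 7 genes in each library, ordered by the mean in DMSO. Aifm1 is above Bcl2l1 in all DMSO libraries and below Bcl2l1 and Bax in all ARVs libraries, and Dapk1 is the least abundant gene in both groups.

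Genes around these members were counted on lists that also name genes outside the table. A listed gene is one that the authors called, as held for 1756 of the 13187 genes they tested. Of 22 genes of the BCL2 family only Bax and Bcl2l1 were listed. The other members, such as the BH3-only genes that activate Bax, were not in the table and were not analysed here. The table held 8 of 34 p53 targets, 7 higher and 1 lower with ARVs, beside 39.9% higher and 60.1% lower over all tested genes, with a median log2 fold change of 0.37 beside -0.25. Of these, 6 passed as higher without DMSO replicate 1, without ARVs replicate 2, or with adjustment over the genes tested by the authors. The 8 listed targets include the members Bax and Phlda3, and the list was chosen with earlier results of these data known. Its counts are therefore a description only. The other targets on the list, such as Cdkn1a and Mdm2, were not in the table and were not analysed here. Gdf15, a stress-induced cytokine that is also induced through ATF4, rose most, from 462 ± 50.9 to 864 ± 62.8 normalized counts (SD, n = 3 each; log2 fold change 0.90 ± 0.09 SE, edgeR adjusted p = 1.3e-04). Sesn2, an inhibitor of mTORC1 signalling, had a log2 fold change of 0.39 ± 0.05 (SE) and Gadd45a, a growth arrest and DNA damage gene, had 0.50 ± 0.09 (SE). The lower member was Tigar (-0.51 ± 0.17 SE), named after its values were seen, which did not pass with median-ratio factors (edgeR adjusted p = 0.0906). Tigar also failed to pass without DMSO replicate 3, without ARVs replicate 2 and with adjustment over the genes tested by the authors.

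The list of mitochondrial death factors went the other way. The table held 7 of its 17 genes, each of them lower with ARVs, with a median log2 fold change of -0.32 beside -0.25 over all tested genes, of which 60.1% were lower. The member Aifm1 is among the 7, and this list too was chosen with earlier results known, so its counts are a description only. Cycs, which encodes cytochrome c, the activator of the apoptosome, had a log2 fold change of -0.51 ± 0.06 (SE), and Ppif, the cyclophilin that regulates the permeability transition pore, had -0.47 ± 0.06 (SE). Slc25a4, the adenine nucleotide carrier of heart muscle, had -0.30 ± 0.06 (SE). The number of lower genes rests on the scaling: 6 of the 7 passed with TMM, where 50.4% of all tested genes were called lower, and 2 passed with median-ratio factors (30.6% of all). Cytochrome c, the nucleotide carriers and the apoptosis-inducing factor also serve respiration in living cells.

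Other arms of the death machinery held 1 or 2 listed genes each, beside 1756 of the 13187 genes that the authors tested. Among 6 genes on a list of DAP kinases and other death-associated proteins, Dapk1 was higher and Stk17b, a related kinase, was lower (516 ± 18.4 to 313 ± 16.5 normalized counts, SD, n = 3 each; log2 fold change -0.72 ± 0.08 SE). Of 17 caspase and inflammasome genes Casp4 was the only listed gene, and of 21 death receptor and adapter genes Tnfrsf12a was. In the NF-kB pathway, which TWEAK activates through Fn14, 2 of 15 genes were listed and both were higher (39.9% of all tested genes were), Rela by 0.22 ± 0.05 (SE) and Malt1 by 0.47 ± 0.10 (SE) on the log2 scale. Of 8 inhibitors of apoptosis and their antagonists only Birc5 was listed, with a log2 fold change of -0.68 ± 0.12 (SE). Birc5 also acts in cell division, and all 6 markers of dividing cells, Birc5 included, were lower (60.1% of all tested genes were), with a summed normalized count of 9089 to 9424 in DMSO and 4568 to 4951 in ARVs libraries. The part of dividing cells in the change of Birc5 was not tested.

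**Figure D5:**
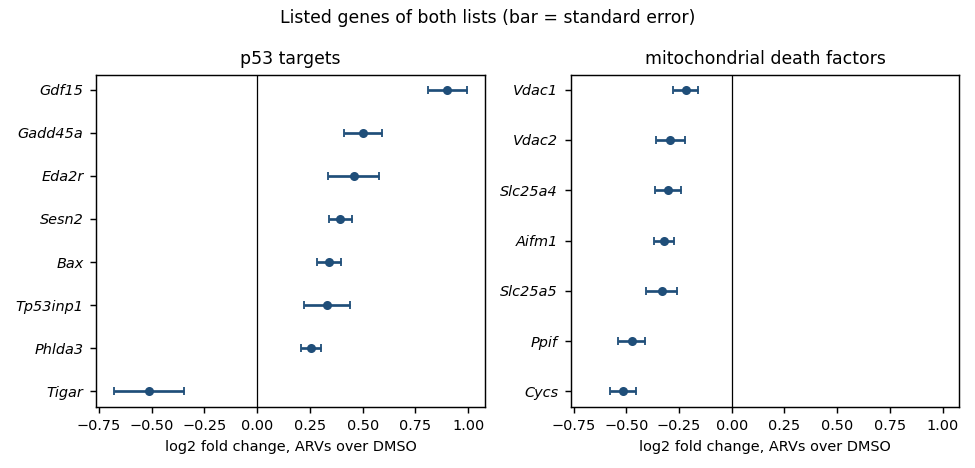
Log2 fold change of ARVs over DMSO (x axis, bars are standard errors) of the listed p53 targets and mitochondrial death factors. Of the p53 targets 7 lie above 0 and Tigar below; all 7 mitochondrial genes lie below 0.

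Markers of the cell types in such cultures moved in different directions. Of 8 cardiomyocyte markers 3 were listed (1 higher and 2 lower), and their abundance (210629 to 264967 summed normalized counts with DMSO and 154283 to 177301 with ARVs, mostly Myh6) shows that heart muscle transcripts were plentiful. The sum followed Myh6, whereas Pln, the phospholamban gene, named after its values were seen, rose from 29727 ± 761 to 38638 ± 2385 normalized counts (SD, n = 3 each; log2 fold change 0.38 ± 0.05 SE, edgeR adjusted p = 6.1e-04). Listed markers of smooth muscle cells and pericytes (5 of 6) were all lower, beside 60.1% of all tested genes, with sums of 104863 to 127980 normalized counts with DMSO and 74407 to 86312 with ARVs. For fibroblasts (3 of 8 listed, 1 higher and 2 lower) the sums were 94012 to 97051 and 76392 to 81042. Of 6 endothelial markers only Tek, the angiopoietin receptor, was listed, and it was higher, with 310.4 to 359.8 normalized counts with DMSO and 449 to 532 with ARVs (log2 fold change 0.57 ± 0.10 SE, edgeR adjusted p = 0.00137). No listed marker was at 0 in any library. The sums hold only markers that the authors called as changed, so their differences between groups do not measure the amount of a cell type. The part of these cell types in the changes of the 7 genes was not tested.

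The genes most like each member were sought by Pearson's r of log2(normalized count + 1) over the 6 libraries, among 1712 other genes with a mean of at least 50 normalized counts. Since all listed genes differ between the groups, high values of r are given as a description only. Ncln was the gene most like Bax (r = 0.999) and Zfp251 the gene most like Bcl2l1 (r = 0.996). Anxa4 was closest to both Phlda3 (r = 0.998) and Dapk1 (r = 0.988). Smpdl3a was closest to Casp4 (r = 0.992), Fam13b to Tnfrsf12a (r = 0.980) and LOC100363502 to Aifm1 (r = 0.995). Among the 7 genes themselves, Phlda3 and Dapk1 were the most alike (r = 0.985), and Tnfrsf12a and Dapk1 the least alike of the genes that rose (r = 0.551).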

How the data were processed

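RNA of 3 DMSO and 3 ARVs libraries was sequenced by the authors (TruSeq, HiSeq), mapped (HISAT2, reference release 97) and assembled (StringTie 1.3.3b). The counter is not given in the sources used here. The deposited table holds the authors' raw counts, a normalized signal (count divided by a size factor per library) and FPKM, and the authors' own log2 fold changes and p-values, which were used only to check how rows were selected and how many genes were tested. Raw counts were tested in R 4.3.3 with edgeR 4.0.16 (filterByExpr, glmQLFit, glmQLFTest), with library sizes set by the authors' size factors, because TMM takes most genes as unchanged, which a table of called genes breaks. P-values were adjusted by Benjamini-Hochberg over 1751 genes at 0.05, and SE is the absolute log2 fold change divided by the root of F. These genes were preselected on the same libraries, so the adjusted values are smaller than over all genes tested by the authors. Over those 13187 genes, the edgeR adjusted p of the members other than Tnfrsf12a ranged from 0.0062 (Aifm1) to 0.0316 (Casp4). The test was checked on simulated data in which a minority of genes changed and no library stood apart. The check therefore does not cover a table of called genes like this one. Alternatives were TMM, median-ratio factors, DESeq2 1.42.0, other count filters, an adjusted p of 0.01, a replicate block, leaving out each library, and adjustment over 13187 genes. The members and lists were chosen with earlier results of these data known. Named genes are the members, all called genes of lists with up to 6, otherwise the 4 with the smallest adjusted p, and the gene most like each member; cell type markers are given as sums. Promoters came from RefSeq (GRCr8). Counting errors cover counting only. Some genes are not reported here.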

Additional observations from a re-analysis of the deposited data

How the results depend on the processing

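The direction of all 7 genes was kept under every alternative run. Bax, Bcl2l1, Phlda3, Dapk1 and Casp4 also kept their call under all of them. Median-ratio factors over the listed genes gave 536 lower genes in place of 1052 and none of the 7 genes as lower (0 in place of 1, Aifm1), since they shift every fold change up by a median of 0.20. Tnfrsf12a had an adjusted p of 0.0373 and so failed a threshold of 0.01, adjustment over the genes the authors tested (5 of the 7 genes were then higher and 1 lower, with 547 and 826 over the table) and 4 of the 6 fits without a library, its log2 fold change ranging from 0.19 to 0.38. The titles number the replicates in both groups. After removal of group means, same-numbered libraries correlated at 0.068, 0.33 and 0.12 across genes, not above 0.1 in each pair, and DMSO replicate 1 correlated best with ARVs replicate 3, so no pairing was assumed. With the replicate block 6 of the 7 genes were higher and 1 lower, as without it, and 699 genes were higher and 1052 lower in all; Tnfrsf12a had a log2 fold change of 0.26 (adjusted p = 0.00337 from edgeR). The spread of the log2 ratio of Bax to Bcl2l1 in the DMSO libraries (SD 0.16) came from DMSO replicate 3, and the difference between groups was 0.0026 with this library and 0.093 without it.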
